A study of Bubalus bubalis with 12 samples.

Results

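The Hippo pathway genes described here are 10 genes in 3 roles: the core kinases and their scaffold (STK3, STK4, SAV1, LATS1 and LATS2), the coactivators that these kinases restrain (YAP1 and WWTR1), and the Ajuba-type LIM proteins, which bind the LATS kinases (WTIP, LIMD1 and AJUBA). They were taken by symbol from the 34037 genes of the deposited FPKM table, and each of the 10 symbols matched 1 row. The set was put together with earlier results of these data in view, namely lower STK3 and WTIP in green-fed animals, so the difference between diets is given for its members as a description without a test. All 10 were among the 12661 genes that passed the filter on low read numbers.

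The samples were rumen wall of 12 adult Italian Mediterranean dairy buffaloes (Bubalus bubalis), collected at slaughter, with 1 library of total RNA per animal. Replicate numbers follow the sample descriptions, which differ from the numbers in the sample titles for some animals. Control animals (n = 6) were fed a total mixed ration (TMR), and treated animals (n = 6) the TMR with green ryegrass as about 30% of the diet. Wall tissue can hold several layers, and in such bulk samples fewer cells of a type and less RNA per cell cannot be told apart. Counted fragments per animal lay between 10531541 and 12948372. Control replicate 6 had the fewest, and both libraries numbered 6 lay farthest out on the first principal component of all tested genes (26.9% of the variance), so results that rest on them are given also without both. Markers of epithelium were abundant in every sample: the 9 epithelial markers in the table, led by KRT5 and KRT15, summed to 2839 to 4754 FPKM in control and 2616 to 5491 FPKM in treated animals, against 29.7 to 51.6 and 16.9 to 42.3 FPKM for the 10 smooth muscle markers, led by SMTN and TAGLN.

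In the Hippo pathway, the kinases MST2 and MST1, encoded by STK3 and STK4, act with the scaffold SAV1 to activate LATS1 and LATS2. The LATS kinases phosphorylate the coactivators YAP, encoded by YAP1, and TAZ, encoded by WWTR1, which keeps them out of the nucleus and lowers their activity with TEAD transcription factors. Proteins of the Ajuba family bind LATS kinases at cell junctions and restrain them, and the pathway as a whole is known for limiting the growth of epithelia, such as the keratinized epithelium that lines the rumen.

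Per length of gene, YAP1 was the highest of the 10 genes, with a mean of 54.6 ± 10.2 FPKM (SD, n = 12 animals of both diets), above the mean level of 91.6% of the tested genes. AJUBA followed with 29.7 ± 4.36 FPKM and WWTR1 with 20.7 ± 2.97 FPKM. LATS1 lay at 10.2 ± 1.48 FPKM, and the remaining kinases, SAV1 and the other LIM genes lay lower. LIMD1, at 3.13 ± 1.26 FPKM, was the lowest, though still above 27.7% of the tested genes. The coactivators were thus measured at higher levels per length than any kinase, and 1 of the LIM genes at a level between them.

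The paralogs of each role differed in FPKM, a level per length of gene. Within animals, levels were compared as the mean log2 ratio of FPKM by a two-sided exact sign-flip permutation test over the 12 animals, with adjustment over 15 pairs, of which 6 were within a family and 9 between neighbours in the order of levels. STK3 exceeded STK4 in 12 of 12 animals, by a log2 of 0.60 ± 0.239 (SD, n = 12; adjusted exact permutation p = 0.000916, raw p = 0.000488, the smallest that 12 animals allow). By reads the order was the reverse, with 234 to 357 per animal for STK3 and 398 to 651 for STK4. The gene lengths worked out from the FPKM were 3686 bases for STK3 and 8857 for STK4. LATS1 exceeded LATS2 in 12 of 12 animals, by 1.44 ± 0.334, and YAP1 exceeded WWTR1 by 1.39 ± 0.347, both with the same p-values. AJUBA exceeded LIMD1 in every animal, 10.1-fold by geometric mean, and exceeded WTIP 4.53-fold, again with an adjusted exact permutation p of 0.000916. WTIP exceeded LIMD1 in 9 of 12 animals, by 1.16 ± 1.55 (SD, n = 12; adjusted exact permutation p = 0.0417). That last call is fragile, since it was lost when any of 8 of the 12 animals was left out (adjusted p between 0.0542 and 0.0762). All these p-values measure how steady a ratio was between animals. They cannot tell a difference in abundance from a bias of a gene that all libraries share.

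Ordered by geometric mean, the genes ran YAP1 (53.6 FPKM), AJUBA (29.4), WWTR1 (20.5), LATS1 (10.1), STK3 (6.63), WTIP (6.50), STK4 (4.37), LATS2 (3.71), SAV1 (3.59) and LIMD1 (2.92). The steps from YAP1 down to STK3 each passed the test: YAP1 to AJUBA by a log2 of 0.87, AJUBA to WWTR1 by 0.52 (higher in 11 of 12 animals, adjusted exact permutation p = 0.00244), WWTR1 to LATS1 by 1.03 and LATS1 to STK3 by 0.60. Below STK3, no neighbouring pair passed the test over the 12 animals. The adjusted p-values of the exact permutation test were 0.948 for STK3 and WTIP, 0.234 for WTIP and STK4, 0.0513 for STK4 and LATS2, 0.722 for LATS2 and SAV1, and 0.234 for SAV1 and LIMD1.

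**Figure D1:**
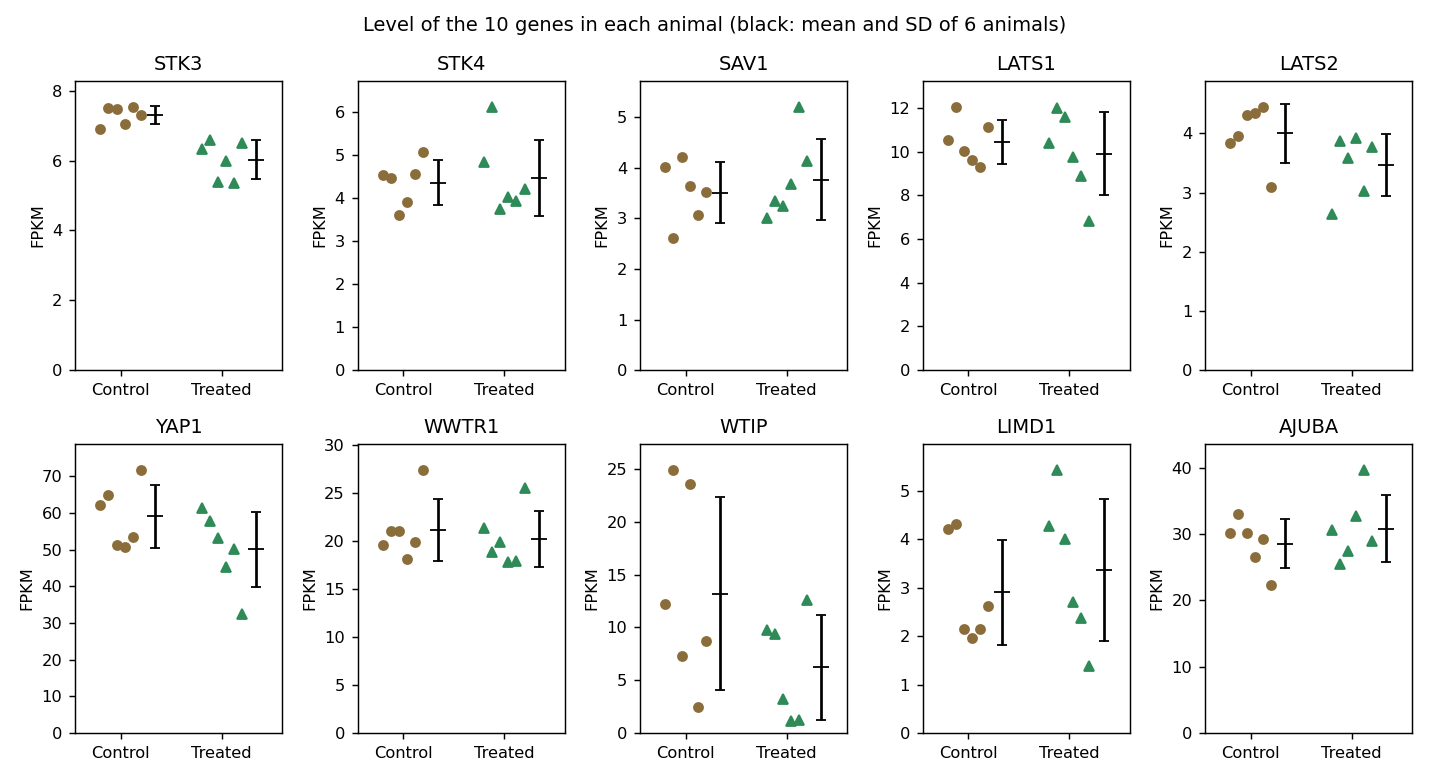
FPKM of each of the 10 genes (vertical axes, linear from 0, each gene on its own scale) in the 6 control animals (circles) and 6 treated animals (triangles), with the mean and SD of each group as a bar to their right. The 6 treated values of STK3 lie below its 6 control values, the groups of every other gene overlap, and WTIP spreads from 1.12 to 24.9 FPKM.

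STK3 (gene 102414176) encodes MST2, a kinase at the top of the core cascade. In control animals it lay between 6.91 and 7.52 FPKM with a median of 7.39, and in treated animals between 5.35 and 6.60 FPKM with a median of 6.15. All 6 treated animals lay below all 6 control animals, which was the case for no other of the 10 genes. Group means were 7.29 ± 0.261 and 6.03 ± 0.546 FPKM (SD, n = 6 each), and the log2 fold change from control to treated was -0.28 (SE 0.11, 95% interval -0.51 to -0.05), so that the treated level was 0.824 of the control level. Over all tested genes, 0.0237% had groups that did not overlap with the treated group lower, and 1.24% reached p below 0.05 in limma before adjustment, in either direction. STK3 was chosen from this contrast, so nothing is read from its place among them. No gene of the whole table passed at an adjusted p-value of 0.05, and the smallest adjusted limma p-value was 0.9997.

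Each STK3 value rested on 234 to 357 reads, for which counting alone gives an SD of 0.0843 on the log2 scale. The SD within diet groups was 0.101, and only 0.640% of the tested genes had a smaller one. On the FPKM scale STK3 was thus among the genes that varied least between animals on the same diet. A small SD favours a call between groups, and STK3 was chosen from that contrast, so nothing is read from this rank. Leaving out each animal in turn kept the log2 fold change between -0.31 and -0.25, and without both libraries numbered 6 it was -0.30 (SE 0.10). The separation of the groups depended on the scale. After division by the median ratio of each library to the geometric mean of all, treated replicate 6 came to 6.96 and control replicate 1 to 6.43, so that the groups overlapped.

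STK4 (gene 102395115), which encodes the paralog MST1, ranged from 3.59 to 5.06 FPKM with a median of 4.50 in control animals and from 3.74 to 6.10 FPKM with a median of 4.12 in treated animals. The groups overlapped, with only treated replicate 2 above every control animal. Its log2 fold change was 0.03 (SE 0.15, 95% interval -0.30 to 0.35). The log2 ratio of STK3 to STK4 within an animal was 0.75 ± 0.188 in control and 0.45 ± 0.184 in treated animals (SD, n = 6 each). These ratios ran from 0.53 to 1.06 and from 0.11 to 0.62, so that they overlapped between diets.

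SAV1 (gene 102414280), the WW domain scaffold that joins MST and LATS kinases, had a mean of 3.50 ± 0.597 FPKM in control animals and 3.76 ± 0.803 FPKM in treated ones (SD, n = 6 each). Its control range of 2.60 to 4.21 FPKM held all but 1 of the treated animals, replicate 5 with 5.19 FPKM. Its log2 fold change was 0.09 (SE 0.17, 95% interval -0.28 to 0.47).

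LATS1 (gene 102411619) ranged from 9.28 to 12.03 FPKM with a median of 10.3 in control animals and from 6.81 to 12.01 FPKM with a median of 10.1 in treated animals. The lowest value belonged to treated replicate 6, and 2 treated animals lay below every control animal. On the log2 scale the difference was -0.09 (SE 0.14, 95% interval -0.40 to 0.21), and it was 0.03 (SE 0.11) without both libraries numbered 6. LATS2 (gene 102406670), its paralog, ranged from 3.10 to 4.44 FPKM in control and from 2.65 to 3.92 FPKM in treated animals, with medians of 4.14 and 3.69. Of the treated animals, 2 lay below every control animal and none above. Its log2 fold change of -0.21 (SE 0.15, 95% interval -0.53 to 0.12) had an interval that included 0.

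YAP1 (gene 102392672) carried the most reads of the set, 1771 to 3345 per animal. It ranged from 50.9 to 71.7 FPKM with a median of 57.7 in control animals and from 32.4 to 61.5 FPKM with a median of 51.7 in treated animals. The highest value was that of control replicate 6 and the lowest that of treated replicate 6, and 3 treated animals lay below every control animal. The log2 fold change of -0.26 (SE 0.15, 95% interval -0.58 to 0.07) was close in size to that of STK3 but with a wider interval. It rested in large part on the libraries numbered 6, since without both it was -0.08 (SE 0.11). WWTR1 (gene 102402070), which encodes TAZ, ranged from 18.1 to 27.4 FPKM in control and from 17.8 to 25.5 FPKM in treated animals, with medians of 20.4 and 19.4. Its highest values in both groups were those of replicate 6. For WWTR1 the log2 fold change was -0.06 (SE 0.12, 95% interval -0.33 to 0.20), and between -0.13 and 0.01 with each animal left out in turn.

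WTIP (gene 102403272) is a LIM domain protein first known as a partner of the Wilms tumour protein. It was one of the genes for which the study designed oligos for RT-qPCR, whose measurements were not analysed here. The table of oligos lists a pair for WTIP, both given as forward, of 20 bases each with a GC content of 50% and 55%. They are shown as the only sequences of a member in the study's own files used here, written 5′ to 3′ in lower case with no base marked.
WTIP oligo, listed first: cgtgcgtagttttgcgttga
WTIP oligo, listed second: acacaacgctctggcactga

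WTIP ranged from 2.46 to 24.9 FPKM with a median of 10.4 in control animals and from 1.12 to 12.6 FPKM with a median of 6.28 in treated animals. The highest values were those of control replicates 2 and 4, the lowest those of treated replicates 4 and 5, and control replicate 5 lay below 4 of the treated animals. The group means were 13.2 ± 9.13 and 6.21 ± 4.97 FPKM (SD, n = 6 each). On the log2 scale the difference was -1.30 (SE 0.70, 95% interval -2.80 to 0.21), and leaving out each animal in turn moved it between -1.70 and -0.92. It was the largest difference between diets in size among the 10 genes, and also the least precise.

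The spread of WTIP between animals was far above that of counting. Its SD within diet groups was 1.41 on the log2 scale, larger than that of 97.8% of the tested genes, where its 34 to 754 reads would give 0.134 by counting alone. From the lowest to the highest animal the level differed 22.3-fold, against 1.40-fold for STK3. On this scale STK3 and WTIP, both with lower means in treated animals, stood at opposite ends of the variation within diets. Both were chosen from the diet contrast, so this is a description alone.

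The gene whose values followed WTIP most closely was LOC112580279, with a Pearson r of 0.945 and a Spearman rho of 0.858 over the 12 animals after subtraction of the group means. In the gene order of the RefSeq annotation of the assembly NDDB_SH_1, it stands directly beside WTIP. It had 54.0 and 24.0 FPKM in control replicates 4 and 2, the animals with the highest WTIP. It had 1 read in control replicate 5 and was listed at 0 in treated replicates 4 and 5, the 3 animals with the lowest WTIP. Of the other genes tested within 6 places of WTIP, UBA2 had an r of 0.663, GPI of 0.622 and PDCD2L of 0.0280, and these 3 were named after their values were seen. Whether reads of one of the neighbouring genes are counted for the other was not tested. PRR13 (r 0.869, rho 0.797) and LNP1 (r 0.850, rho 0.776) were the next most alike.

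**Figure D2:**
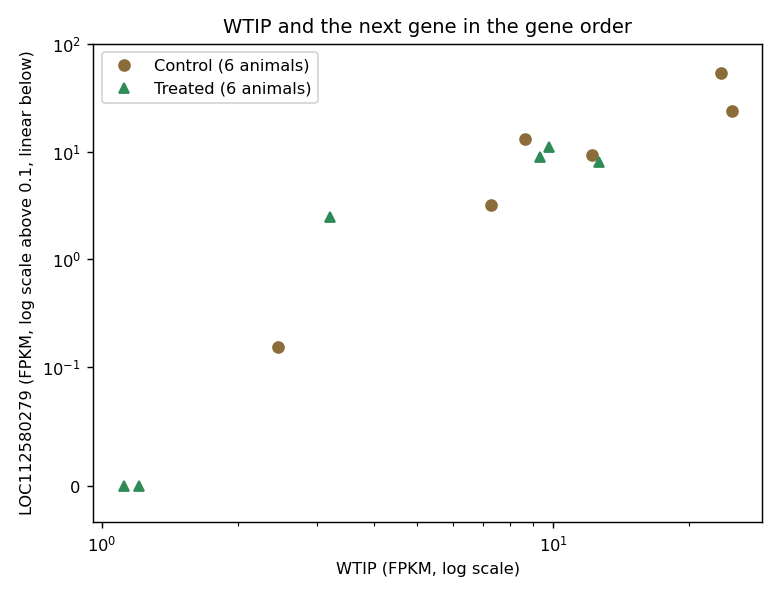
FPKM of LOC112580279 (vertical axis, log scale above 0.1 and linear below) against that of WTIP (horizontal axis, log scale) in 6 control animals (circles) and 6 treated animals (triangles). Both genes are low in the same animals, with LOC112580279 at 0 where WTIP was 1.12 and 1.20 FPKM, and both are high in the same control animals.

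For STK3, the 3 genes most alike in the same measure were NOX1, an NADPH oxidase (r 0.853, rho 0.753), MXD1, a partner of MAX (r 0.840, rho 0.832), and LOC112585712 (r 0.834, rho 0.874). The likeness to NOX1 came from the treated animals, with an r of 0.965 there and 0.0738 in the control animals. NOX1 had 0 reads in treated replicates 3 and 5, the animals with the lowest STK3, and on the log2(FPKM + 0.01) scale these zeros weigh heavily in its r. An r above 0.8 was reached by 4 of 12660 other genes (0.0316%) with STK3, and by 5 (0.0395%) with WTIP. These were the lowest shares among the members, beside 6.48% for LIMD1. The genes named as most like STK3 and WTIP are the highest of 12660 values of r. Whether such values exceed those of unrelated genes was not tested. For STK3, counting alone gives an SD of 0.0843 in log2, beside 0.101 within diets, so little of its spread is left for a likeness.

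LIMD1 (gene 102414551), which is known to bind LATS kinases, ranged from 1.96 to 4.32 FPKM with a median of 2.39 in control animals and from 1.39 to 5.43 FPKM with a median of 3.35 in treated animals. Control replicates 1 and 2 stood well above the other control animals, and treated replicate 6 was the lowest of all. Its log2 fold change was 0.16 (SE 0.33, 95% interval -0.54 to 0.85), and between -0.01 and 0.38 with each animal left out in turn. AJUBA (gene 102407922), the most abundant of the LIM genes here, ranged from 22.3 to 33.1 FPKM in control and from 25.5 to 39.7 FPKM in treated animals. Its group means were 28.6 ± 3.71 and 30.8 ± 4.99 FPKM (SD, n = 6 each). For AJUBA the log2 fold change was 0.11 (SE 0.13, 95% interval -0.17 to 0.38), and it was 0.03 without treated replicate 5 and 0.04 without control replicate 6.

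Over the 10 genes, 6 had a lower mean on the log2 scale in treated animals, beside 48.8% of all tested genes. The median log2 fold change of the 10 was -0.08, against 0.01 over all tested genes. The Ajuba-type genes did not share a sign, with WTIP negative and LIMD1 and AJUBA positive, and LIMD1 turned negative with the stromal score as a covariate (-0.13). Of the 10 intervals, 1 excluded 0, that of STK3, which was chosen from this contrast. Over all tested genes, 1.24% passed before adjustment in either direction (0.450% with the treated group lower). Because of that choice, the count among the 10 is no test, and no excess is read from it.

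**Figure D3:**
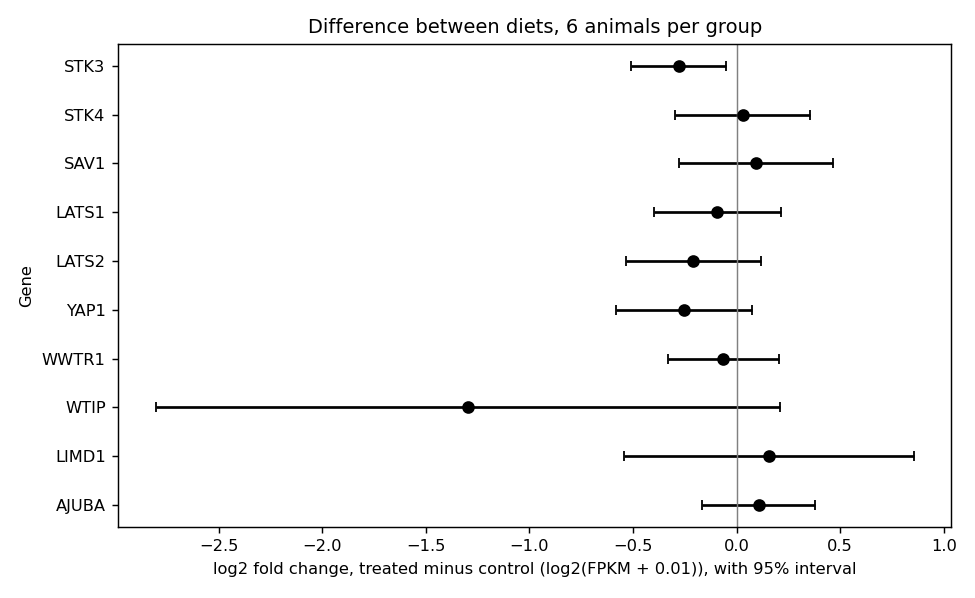
Log2 fold change from control to treated on the log2(FPKM + 0.01) scale (horizontal axis) for the 10 genes, with the 95% interval of limma as a bar. The interval of STK3, which was chosen from this contrast, lies below 0. Those of the other 9 genes include 0, and that of WTIP runs from -2.80 to 0.21.

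Independently of diet, some of the 10 genes varied together between animals. Correlations of all 45 pairs were computed on log2(FPKM + 0.01) after subtraction of the group means, with a two-sided permutation test within diets and adjustment over the 45 pairs. LATS1 and LIMD1 had a Pearson r of 0.900 (permutation p = 0.00038, adjusted p = 0.0171) and a Spearman rho of 0.888 (permutation p = 0.00075, adjusted p = 0.0337, n = 12). Within groups the r of this pair was 0.766 in control and 0.966 in treated animals. LATS1 and YAP1 had an r of 0.859 and a rho of 0.804, and YAP1 and LIMD1 an r of 0.840 and a rho of 0.804. Both pairs passed by Pearson's r (permutation p = 0.00328 and 0.00302, adjusted p = 0.0492 each) and missed the threshold by rank (permutation p = 0.004 and 0.00415, adjusted p = 0.0622 each). The RNA levels of LATS1, YAP1 and LIMD1 thus tended to be high and low in the same animals. Each was closer still to genes outside the set, with a highest r of 0.965 for LATS1, 0.990 for YAP1 and 0.983 for LIMD1.

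Without the 2 animals farthest from the median of the first gene of each pair, r was 0.819 for LATS1 and LIMD1, 0.698 for LATS1 and YAP1, and 0.859 for YAP1 and LIMD1. Without both libraries numbered 6 it was 0.868, 0.668 and 0.889 (n = 10). Correlations of this size were not rare in the table: 2.96% of all other tested genes had an r above 0.8 with LATS1, 4.49% with YAP1 and 6.48% with LIMD1. Of the remaining 42 pairs none passed, and the median r of the 45 pairs was -0.09. The lowest was that of LATS2 and YAP1, with an r of -0.62 and a rho of -0.55. STK3 and STK4 had an r of 0.568 over all animals, of -0.06 in control and of 0.754 in treated animals.

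**Figure D4:**
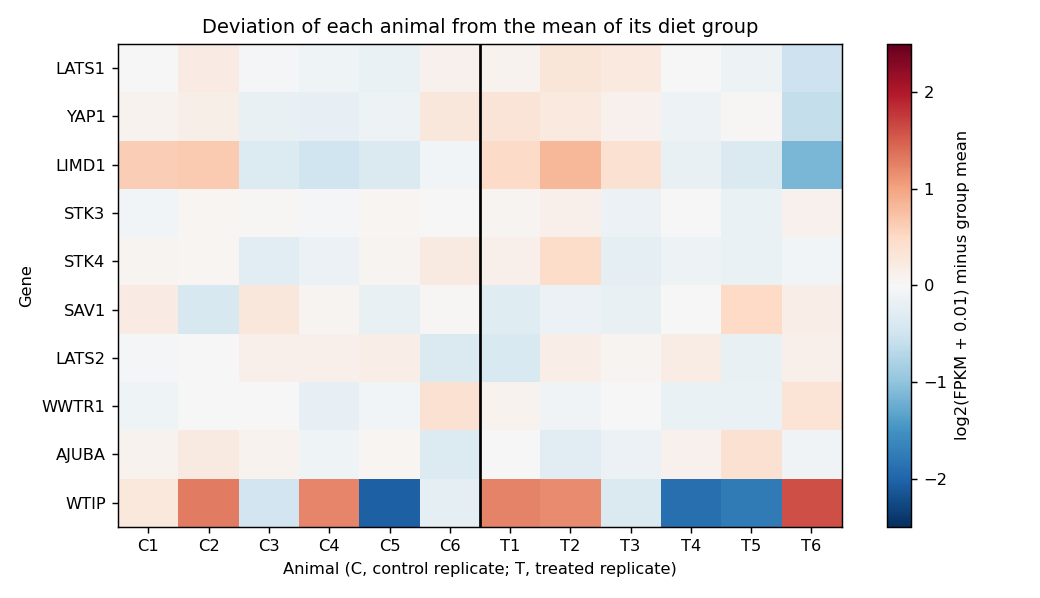
Deviation of each animal (columns, control replicates C1 to C6 and treated replicates T1 to T6) from the mean of its diet group, in log2 FPKM units (colour), for the 10 genes (rows). LATS1, YAP1 and LIMD1 are all low in T6 and above their group means in C2, T1, T2 and T3, and WTIP shows the widest deviations.

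Samples of rumen wall can differ in how much epithelium and connective tissue they hold, and markers of both were read beside the 10 genes. Stromal markers had lower means in treated animals: all 10 fibroblast markers, led by COL3A1 and LUM, and all 7 tested smooth muscle markers had a lower log2 mean there, though only 1 of these 17, DES, passed limma before adjustment. Summed fibroblast markers ran from 54.5 to 301 FPKM in control and from 23.2 to 199 FPKM in treated animals. The mean log2 level of the stromal markers was 2.60 in control and 2.01 in treated animals, and that of the epithelial markers 7.86 and 7.91. The other marker lists were low, with sums of 5.88 to 31.9 FPKM for endothelium, 9.72 to 24.3 for immune cells and 2.12 to 15.7 for enteric glia and neurons, of which ELAVL4 and SOX10 were at 0 in all 12 animals.

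Each of the 10 genes was therefore set against these scores within diets, in limma with diet as a term. None had a slope on the stromal score at an adjusted p-value below 0.05, beside 0.989% of all genes outside the score, and the adjusted limma p-values ran from 0.256 to 0.898. The largest in size was that of WTIP, -0.99 in log2 per unit of the score (SE 0.46, adjusted p = 0.275). With the stromal score as a covariate, the log2 fold change of STK3 went from -0.28 to -0.31 and that of WTIP from -1.30 to -1.89. Whether tissue make-up bears on these differences was not tested. On the epithelial score, 29.0% of all genes had a slope and 1 of the 10 did, LIMD1, with 1.22 (SE 0.34, adjusted p = 0.0183). Over all the animals LIMD1 was thus higher where the epithelial score was higher, and slopes of either sign on this score were common. The LIMD1 slope lost its call without treated replicate 6 (1.01, adjusted p = 0.299), and without both libraries numbered 6 it was 1.92 (adjusted p = 0.146). YAP1 (slope 0.46, adjusted p = 0.0742), WWTR1 (-0.36, adjusted p = 0.0761) and LATS1 (0.39, adjusted p = 0.104) missed the threshold. These slopes too depended on which of the libraries numbered 6 was left out. Without treated replicate 6 they were 0.08 for YAP1 and 0.06 for LATS1, without control replicate 6 both passed, and without both libraries that of WWTR1 was positive (0.23, beside 0.80 for YAP1 and 0.32 for LATS1). STK3 had slopes of -0.04 on both scores.

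The rest of the pathway was read from 6 lists of 108 genes, of which 106 were in the table and 96 were tested. In treated animals 58 of the 96 had a lower mean on the log2 scale, beside 48.8% of all tested genes, and 38 a higher one. The median log2 fold change of the 96 was -0.03. Before adjustment 2 of them passed in limma at 0.05, both lower, beside 1.24% of all genes, and none passed after adjustment over all genes (adjusted p = 0.9997 for both). Both are also among the genes that the study called from these samples, so they are not independent evidence of a direction.

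STK38L, which encodes NDR2, a kinase of the LATS family, was one of the 2. Its mean was 37.7 ± 6.27 FPKM in control and 29.9 ± 4.73 FPKM in treated animals (SD, n = 6 per group). That is a log2 fold change of -0.33 (SE 0.13). All 8 tested genes of the MOB adaptors and NDR kinases had lower means in treated animals, beside 48.8% of all tested genes. Their log2 fold changes lay between -0.33 and -0.03 with a median of -0.11, and were also negative after median ratio scaling. None of the other 7 reached the nominal threshold, and each of their changes was smaller than its SE. The list was written with earlier results known, and the signs were not tested. MOB1A, an activating adaptor of LATS and NDR kinases and the most abundant of that list, had a log2 fold change of -0.07 (SE 0.11). MARK1, a polarity kinase among the upstream regulators, had 0.545 ± 0.112 FPKM in control and 0.349 ± 0.0901 FPKM in treated animals (SD, n = 6 per group). The difference on the log2 scale was -0.65 (SE 0.28).

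Among the 37 tested upstream regulators, 20 were lower and 17 higher in mean. Their most abundant members were the atypical cadherin FAT2 (27.8 FPKM over the 12 animals, log2 fold change 0.22, SE 0.19) and the kinase MARK3 (27.8 FPKM, -0.05, SE 0.09). In the STRIPAK complex, which holds the phosphatase that opposes MST kinases, 9 of 14 were lower. Its catalytic and scaffold subunits PPP2CA (144 FPKM) and PPP2R1A (64.1 FPKM) had log2 fold changes of -0.01 (SE 0.08) and -0.04 (SE 0.28). Of the YAP and TAZ partners, 8 of 19 were lower in mean, and the most abundant were the 14-3-3 proteins SFN (119 FPKM, -0.08, SE 0.28) and YWHAG (100.5 FPKM, -0.04, SE 0.08). Of the 4 zyxin family genes, relatives of the Ajuba proteins, 3 were lower, with FBLIM1 at -0.10 (SE 0.40) and LPP at -0.02 (SE 0.22).

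Target genes of YAP and TAZ differed in sign, and a shared shift of the list was not tested. Of 16 tested, 10 were lower and 6 higher in mean, with a median log2 fold change of -0.07 and no gene that passed before adjustment. The most abundant were NT5E, an ectonucleotidase, at 96.9 FPKM (-0.18, SE 0.15) and IGFBP3 at 44.4 FPKM (0.10, SE 0.21). The well-known targets CCN1 and CCN2, chosen after their values were seen, were the lowest and the highest of the list, with log2 fold changes of -0.75 (SE 0.48) and 0.61 (SE 0.51).

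**Figure D5:**
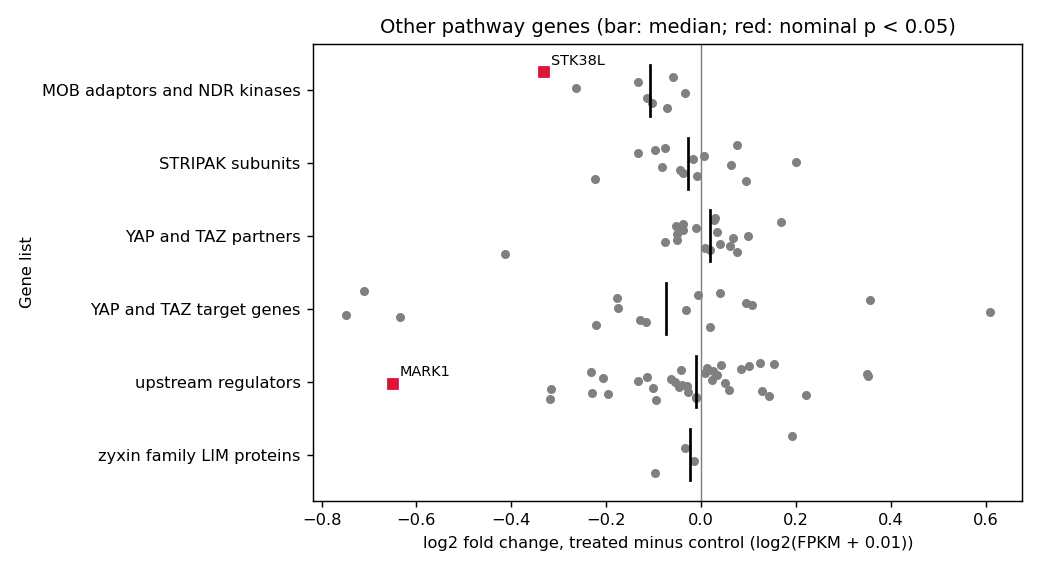
Log2 fold change from control to treated on the log2(FPKM + 0.01) scale (horizontal axis) of the tested genes of 6 lists (rows), each point 1 gene and each bar the median of its list. Squares mark STK38L and MARK1, the only genes to pass limma before adjustment. All points of the MOB and NDR list lie left of 0, where 48.8% of all tested genes lie, and their signs were not tested.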

How the data were processed

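Stranded total RNA libraries of the rumen wall, 1 per animal, were analysed from the deposited table. Per the submitters' processing notes and the study's methods, reads were checked with FastQC 0.11.5, trimmed with Trimmomatic 0.39, aligned to UOA_WB_1 with STAR 2.5.2b and counted by strand with featureCounts 2.0.0 (minimum mapping quality 30). The authors deposited FPKM values for 34037 genes. The tool and gene lengths behind them are not given in the sources used here. The table holds 16 columns, of which 12 matched a sample label and 4 were not used.

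Within a gene the FPKM were whole multiples of the value of 1 read. This gave gene lengths that were whole numbers of bases, within 0.001, for 100% of the 22972 genes above 0, and the reads behind each value. Totals of 10531541 to 12948372 counted fragments per animal set the precision.

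Diets were compared with limma 3.58.1 in R 4.3.3 (variance trend with mean level) on log2(FPKM + 0.01), which understates differences of low genes. It was fitted over 12661 genes. These reached, in at least 1 animal and on reads scaled to the mean library total, the value that the study gives as its HTSFilter limit on TMM values, which stands in for that filter, with Benjamini-Hochberg adjustment over all of them. Exact and permutation tests, tables and figures used Python 3.11.15, numpy 2.4.6, scipy 1.17.1, pandas 2.3.3 and matplotlib 3.10.9 or R. Correlations used 100000 resamples. The scores were the mean log2 level of 17 stromal and 9 epithelial markers. Procedures were tested on simulated data.

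Members and gene lists were chosen with earlier results of these data known. Named genes are the 10 members, list genes with a nominal p-value below 0.05, the 2 most abundant genes of each list, and the 3 genes most like STK3 and WTIP. The RefSeq table of NDDB_SH_1 served for names and gene order alone, and all 10 members matched it by gene ID. The symbols MOB4, CSNK1E and KRT14 matched no row. Alternatives were pseudocounts of 0.1 and 1, other filters, median ratio scaling, robust variance estimation, voom on the reads, the replicate number as a block, marker scores as covariates and each animal left out. Leaving out both libraries numbered 6 was chosen after seeing the data. Nothing says whether animals shared a pen or extraction day, and p-values measure the spread between these animals.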

Additional observations from a re-analysis of the deposited data

Results flagged for a closer look

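In 1 of the 20 groups of 6 values that were checked for an extreme sample (10 genes in 2 diet groups), a single animal stood apart. Control replicate 6 had 27.4 FPKM of WWTR1, with a gap to the nearest control animal of 0.689 of the range of the group, above Dixon's critical value for 6 samples. Chance gives about 1 such group in 20. Treated replicate 6 also had the highest WWTR1 of its group, 25.5 FPKM.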

How the results depend on the processing

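No result past its threshold changed sign. Over all genes, limma gave 157 calls at 0.05 before adjustment. This count was 562 without a filter, 301 with a floor of 0.1 FPKM in 6 or more animals, 343 with the stromal and 285 with the epithelial score as a covariate, 316 without both libraries numbered 6, and 142 to 329 with each animal left out, the highest without treated replicate 6. The count at an adjusted p-value below 0.05 stayed at 0, with a range of 0 to 0 when animals were left out, and voom gave 142 nominal calls. Of the wider lists, 2 genes had a nominal call, against 1 without a filter, 4 with the stromal covariate and 0 to 3 with each animal left out, with 0 without control replicate 6 and 1 without control replicate 1, control replicate 2 or treated replicate 3. The number of members with a lower treated mean ran from 5 to 8 when animals were left out. The log2 fold changes of STK4, SAV1, LATS1, WWTR1 and LIMD1, whose intervals include 0, changed sign in 1 or more of these fits, and those of STK4 (-0.06) and LIMD1 (-0.13) also with the stromal covariate, while STK3, LATS2, YAP1, WTIP and AJUBA did not change sign in any of the 10 other settings or 12 fits with an animal left out.

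Of the 15 level pairs, 10 passed, with 9 to 10 when animals were left out. In the treated animals alone 10 passed by the exact permutation test (adjusted p = 0.0469 each), but not the same 10. There WTIP against LIMD1 was lost (0.43, adjusted exact permutation p = 0.737). STK4 against LATS2 passed instead (0.36, adjusted exact permutation p = 0.0469). The same exchange of pairs occurred without control replicate 3 and without control replicate 4. In the control animals alone 0 passed, with adjusted p = 0.0521 for 9 pairs, each at the smallest raw p that 6 animals allow. The count of members with a slope on the epithelial score was 1, against 2 after median ratio scaling (with WWTR1), 0 without both libraries numbered 6, and 0 to 3 when animals were left out: 3 without control replicate 6 (with YAP1 and LATS1), 2 without treated replicate 1 and 0 without treated replicate 6.

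The sample descriptions number the animals 1 to 6 in both groups, while the titles and table columns number them otherwise. Same-numbered animals deviated together with a mean r of 0.213 (-0.0072 to 0.413), against -0.0393 for other pairs. Of the 6 pairs 4 were above 0.1, and 7 of 12 animals were most alike to their own number. No label states a pairing, so the numbers were not taken as pairs in the main fits. Whether same-numbered animals share a factor was not tested. With the replicate block there were 322 nominal calls in all and 1 in the wider lists, and 0 members had an epithelial slope (LIMD1 2.25, adjusted p = 0.238). Beside the spread within diets, counting error was largest for STK3 (SD 0.0843 against 0.101 in log2) and smallest for WTIP (0.134 against 1.41).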
